A study of Mus musculus with 6 samples.

Results

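A set of 34 genes of cholesterol synthesis, uptake and sterol sensing was followed in mouse cells labelled Hepa1-6, a hepatoma line, in which Ero1a, an oxidase of the endoplasmic reticulum, had been knocked down. The genes were taken by symbol, in pathway order from acetyl-CoA to cholesterol and then sensing, transport and storage, and 33 had a row among the 16217 genes of the deposited table. Mylip was not analysed here. The 2 groups were shERO1A, 3 libraries from cells stably transduced with a lentivirus made to knock down Ero1a, and shNC, 3 libraries from control cells. The virus was added with polybrene, and stable lines were selected with puromycin at several concentrations. The number of hairpins is not given in the sources used here; with 1 knockdown line and 1 control line described, lower Ero1a and any other way in which the lines differ cannot be told apart. Separate cultures are not stated for the libraries of a group, and the p-values therefore rest on a spread that may be technical.

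Cells build cholesterol from acetyl-CoA by way of mevalonate, isoprenoid diphosphates, squalene and lanosterol. The transcription factors SREBP1 and SREBP2, encoded by Srebf1 and Srebf2, are made as membrane proteins of the endoplasmic reticulum. When sterols are low, SCAP escorts them to the Golgi, where a pair of proteases frees the active part, which then raises transcription of the synthesis enzymes; when sterols are high, INSIG proteins hold SCAP back. In the liver this circuit sets how much cholesterol is made and how much is taken up from the blood.

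Between 38290505 and 39646829 reads per library lay behind the values, which are FPKM (reads scaled to gene length and library size, so levels can be compared between genes). Ero1a itself stood at 15.0, 16.0 and 15.7 FPKM in shERO1A and at 37.8, 39.6 and 38.4 FPKM in shNC, which is 40.3% of the shNC level. Of the shERO1A libraries KD1, KD2 and KD3, the last stood apart: Malat1, a nuclear RNA, had 50.7, 47.2 and 13.9 FPKM in KD1, KD2 and KD3, against 50.3 to 53.3 FPKM in shNC, and the mitochondrial mRNA COX1 had 6151, 5211 and 1674 FPKM, against 5813 to 5986 FPKM in shNC. Of 9 hepatocyte markers, Alb, Ttr, Apoa1 and Serpina1a were not among the rows analysed here. The other 5 summed to 85.9 to 92.5 FPKM in shERO1A and 103 to 108 FPKM in shNC, with Apoa2 near 1 FPKM. All 5 intestinal epithelial markers were listed and summed to 480 to 511 FPKM in shERO1A and 501 to 503 FPKM in shNC, led by Cdh17 and Krt20; Vil1, Tspan8 and Cdx2 fell. The sum of the intestinal markers was thus above that of the listed hepatocyte markers in every library, which goes against the label of a liver line, and Hepa1-6 is used here as the labelled name. Among the hepatocyte markers Hnf4a, a liver and gut transcription factor, fell to 33.2 ± 0.855 FPKM in shERO1A, against 41.1 ± 1.12 FPKM in shNC (SD, n = 3 each; limma adjusted p = 0.00287). The part of Hnf4a and of the markers that follow in the sterol gene results was not tested. Of the 5 immune markers, Cd3e and Lyz2 were not among the rows analysed here; the other 3 summed to 2.18 to 3.32 FPKM in shERO1A and 2.42 to 2.74 FPKM in shNC, with Ptprc, which defines leukocytes, at no more than 0.0663 FPKM in any library. Of the immune markers Cd68 alone passed the level filter, and limma did not call it (adjusted p = 0.307), while 2 of 13 alternative fits did. Csf1r was called lower with no filter (adjusted p = 0.0376). The 4 listed of 6 fibroblast markers summed to 0.938 to 1.19 FPKM in shERO1A and 0.837 to 1.35 FPKM in shNC, and none reached the level filter. In the authors' deposited table q was 0.031 for Csf1r and 0.019 for Col1a1. The 3 endothelial markers summed to 17.9 to 18.9 FPKM in shERO1A and 9.97 to 10.7 FPKM in shNC, nearly all of it Cdh5, which rose (adjusted p = 7.66e-05), while Pecam1 and Kdr did not exceed 0.151 and 0.119 FPKM in any library.

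Most sterol genes that differed were lower with the knockdown, by small amounts. All 33 listed members passed the level filter, a mean of 1 FPKM or more, and were fitted among 10296 genes. In shERO1A, 13 members fell and 2 rose at a limma adjusted p under 0.05, and 18 did not pass. Over all tested genes, 8.23% were called lower, 9.48% higher and 17.7% in either direction, whereas 45.5% of the members were called. Members were chosen with earlier results of these data known, so this contrast is a description and not an independent test. With quantile normalization the split was 16 lower and 0 higher, against 9.25% and 9.61% of all tested genes. Without KD3 it was 19 lower and 5 higher, against 12.9% and 14.8%. Without shNC replicate 1 it was 9 lower and 0 higher, against 4.7% and 4.76%. The groups did not overlap in 19 members that were lower and 6 that were higher in shERO1A; over all tested genes these shares were 18.5% and 21.5%. The median log2 change of the members was -0.14, against 0.01 for all tested genes. Called members differed from shNC by between 11.7% and 29.98%.

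**Figure D1:**
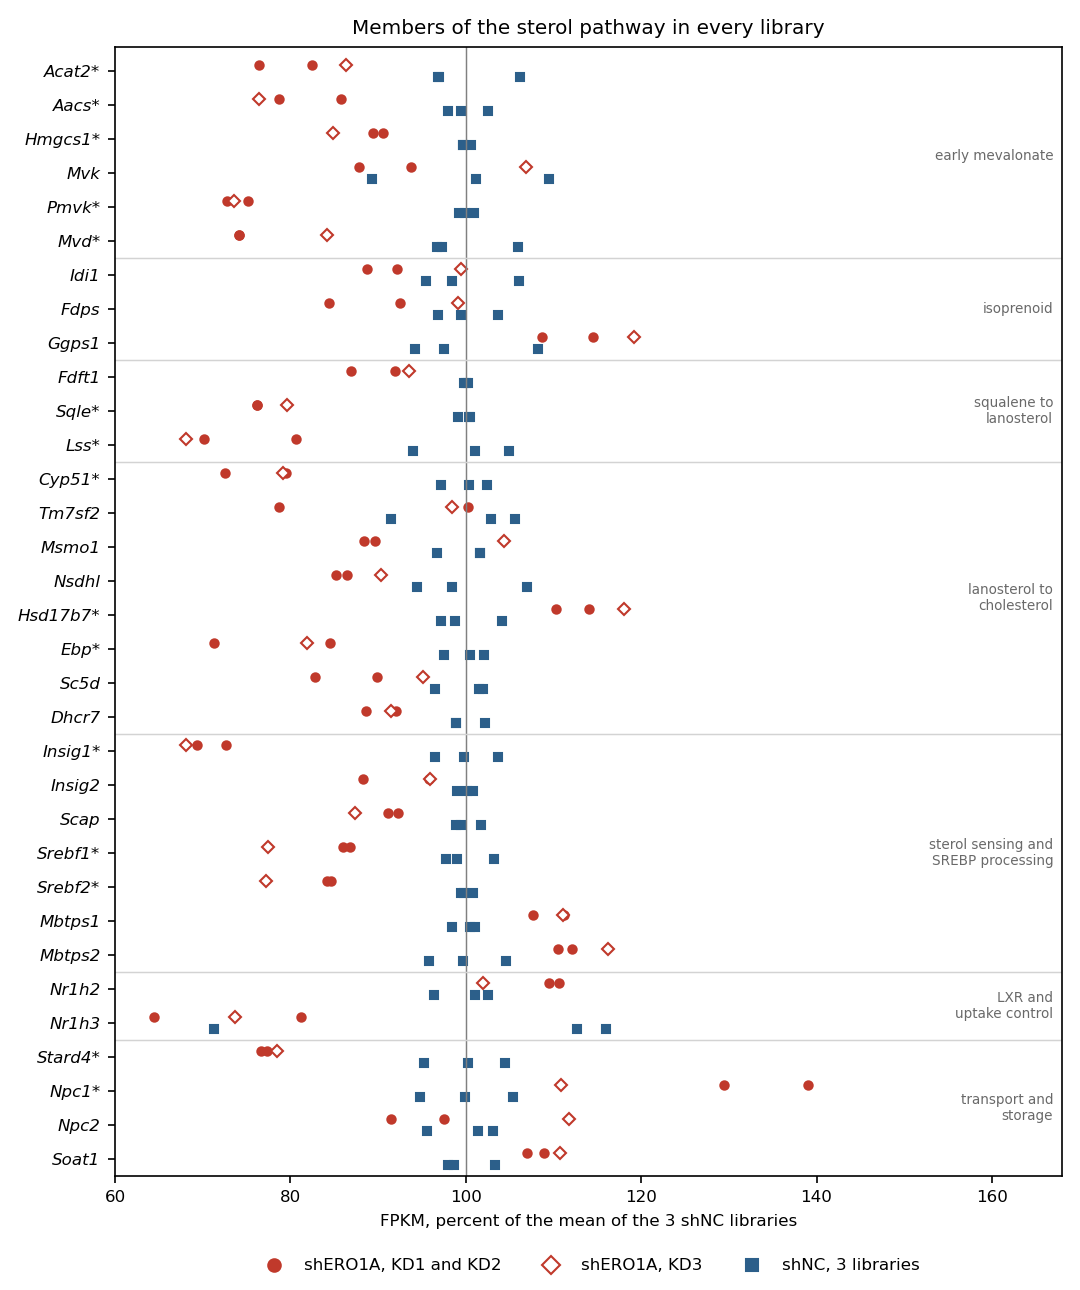
FPKM of the 33 listed members in every library, as a percent of the mean of the 3 shNC libraries (red circles, KD1 and KD2; open red diamonds, KD3; blue squares, shNC; an asterisk marks an adjusted p under 0.05). In 19 members every shERO1A point lies left of every shNC point, and in 6 every shERO1A point lies right of them.

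At the head of the pathway, 5 of the 6 early mevalonate genes fell and Mvk did not pass. Acat2, the cytosolic thiolase that joins acetyl-CoA units, stood at 21.4, 23.1 and 24.2 FPKM in shERO1A and at 29.8, 27.2 and 27.1 FPKM in shNC. The highest shERO1A library lay below the lowest shNC library (log2 change -0.28, SE 0.06, limma adjusted p = 0.0179). Acat2 has a near-identical mouse copy, Acat3, so its reads are uncertain. Aacs, which activates acetoacetate for lipid synthesis, had 32.2, 35.2 and 31.3 FPKM in shERO1A, against 40.1, 40.8 and 42.0 FPKM in shNC, 80.3% of the shNC level (adjusted p = 0.00663). Hmgcs1, the HMG-CoA synthase of the cytosol, had 67.4, 66.6 and 63.1 FPKM in shERO1A and 74.9, 74.2 and 74.2 FPKM in shNC. It was the most abundant gene of this group and the least changed of those that fell, at 88.3% of shNC (adjusted p = 0.0259).

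The kinases and the decarboxylase that follow split. Mvk, mevalonate kinase, had 12.7, 11.9 and 14.4 FPKM in shERO1A and 13.7, 12.1 and 14.8 FPKM in shNC, overlapping ranges (adjusted p = 0.724). Pmvk, the next kinase, had 4.38, 4.53 and 4.43 FPKM in shERO1A, against 6.02, 5.97 and 6.08 FPKM in shNC. With the libraries of each group this close, its 73.8% of the shNC level was far outside the spread (log2 change -0.37, SE 0.05, adjusted p = 0.0027). Mvd, which makes isopentenyl diphosphate, had 16.7, 16.7 and 19.0 FPKM in shERO1A and 21.9, 21.8 and 23.9 FPKM in shNC, 77.5% of the shNC level (adjusted p = 0.00887), with KD3 the highest of the knockdown libraries.

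None of the 3 isoprenoid members passed in limma, where 1 had an unadjusted p under 0.05, and none did with voom or in the authors' deposited table. With array weights all 3 were called, Idi1 and Fdps lower and Ggps1 higher, but that fit called 41.0% of all tested genes and 90.9% of the members. With quantile normalization Fdps was called lower. Idi1, the isomerase of isopentenyl diphosphate, averaged 12.3 ± 0.717 FPKM in shERO1A and 13.2 ± 0.718 FPKM in shNC (SD, n = 3 each; limma adjusted p = 0.351). Fdps, the farnesyl diphosphate synthase, was the most abundant synthesis enzyme, with 110, 121 and 129 FPKM in shERO1A and 135, 130 and 126 FPKM in shNC (adjusted p = 0.242). KD1 and KD2 lay below every shNC library and KD3 did not. Without KD3 the call was lower (log2 change -0.18, adjusted p = 0.0199). Ggps1, which draws farnesyl diphosphate off to geranylgeranyl diphosphate for protein prenylation, had 4.84, 5.10 and 5.31 FPKM in shERO1A and 4.20, 4.82 and 4.35 FPKM in shNC (adjusted p = 0.149); it was one of 6 members whose shERO1A values all lay above shNC.

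From squalene to lanosterol, 2 of 3 genes fell. Sqle, the squalene epoxidase and a control point of the pathway, had 64.9, 64.8 and 67.8 FPKM in shERO1A and 85.5, 84.4 and 85.6 FPKM in shNC, a gap of 16.6 FPKM between the groups (log2 change -0.37, SE 0.04, limma adjusted p = 0.000832). Lss, which closes the first sterol ring system to give lanosterol, had 9.65, 8.40 and 8.15 FPKM in shERO1A and 12.6, 12.1 and 11.3 FPKM in shNC. At 73.0% of shNC it was the most reduced synthesis enzyme (log2 change -0.42, SE 0.07, adjusted p = 0.00706). Fdft1, the squalene synthase, averaged 16.4 ± 0.626 FPKM in shERO1A and 18.1 ± 0.0415 FPKM in shNC and did not pass (adjusted p = 0.0913), though it did without KD3 (adjusted p = 0.0259). In the GENCODE annotation its exons overlap those of Ctsb on the opposite strand, which averaged 157 FPKM, and the strand setting of the counting is not given in the sources used here. Exons of Ggps1, Cyp51, Srebf1 and Npc1 likewise overlap those of Arid4b, Akap9, Rai1 and Rmc1 on the opposite strand, and those of Tm7sf2 overlap Vps51 on its own strand, so their reads are uncertain to that extent.

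Of the 8 genes from lanosterol to cholesterol, 2 fell, 1 rose and 5 did not pass. Cyp51, the lanosterol demethylase, had 33.98, 37.2 and 37.1 FPKM in shERO1A and 48.0, 47.1 and 45.6 FPKM in shNC (77.0% of shNC, limma adjusted p = 0.00233). Ebp, the sterol isomerase, had 23.5, 27.9 and 27.0 FPKM in shERO1A and 33.7, 33.2 and 32.2 FPKM in shNC (adjusted p = 0.0131). Both had groups that did not overlap. Hsd17b7, the ketosteroid reductase that acts with Nsdhl and Msmo1 on the same methyl groups, rose to 14.7, 15.2 and 15.7 FPKM in shERO1A, against 13.9, 12.9 and 13.2 FPKM in shNC (log2 change 0.18, SE 0.05, adjusted p = 0.048). That call lay close to the threshold and was lost in 9 of 14 alternative fits. Nsdhl, which removes the carboxylated methyl group, averaged 22.9 ± 0.699 FPKM in shERO1A and 26.3 ± 1.68 FPKM in shNC (SD, n = 3 each; adjusted p = 0.0581) and was called lower without KD3. Msmo1, the methyl oxidase, had 92.3, 93.7 and 109 FPKM in shERO1A and 106, 106 and 101 FPKM in shNC, with KD3 above every shNC library (adjusted p = 0.403; without KD3, log2 change -0.17 and adjusted p = 0.0055). The reductases Tm7sf2 and Dhcr7 and the desaturase Sc5d stood at 92.5%, 90.7% and 89.2% of shNC with adjusted p = 0.471, 0.137 and 0.108; of these Sc5d was called lower without KD3.

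**Figure D2:**
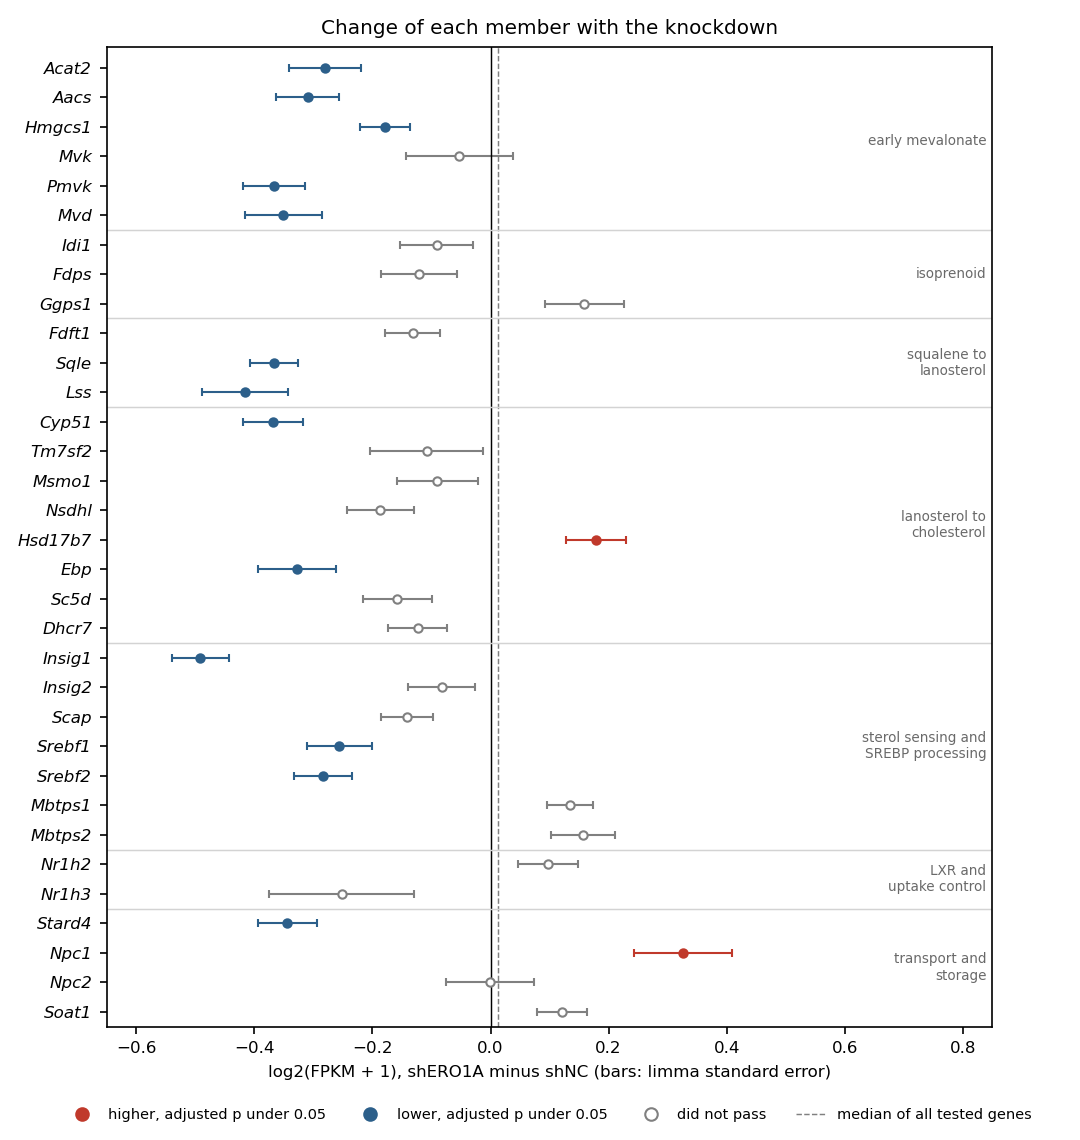
Change of each listed member on the log2(FPKM + 1) scale, shERO1A minus shNC, with the limma standard error (red, higher; blue, lower; open grey, did not pass; dashed line, median of all tested genes). The 13 lower calls lie between Acat2 and Stard4 in the order shown, with none among the isoprenoid and LXR genes. Hsd17b7 and Npc1 are the 2 higher calls.

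Among the 7 genes of sterol sensing and SREBP processing, 3 fell and 4 did not pass in the limma fit. Insig1, the retention factor and itself an SREBP target, showed the largest fall of all members. It had 18.1, 18.9 and 17.7 FPKM in shERO1A and 26.0, 27.0 and 25.1 FPKM in shNC, 70.0% of the shNC level (log2 change -0.49, SE 0.05, limma adjusted p = 0.000529). Its relative Insig2, which is controlled differently, had 4.78, 4.41 and 4.79 FPKM in shERO1A and 4.94, 5.03 and 5.00 FPKM in shNC (adjusted p = 0.364). Srebf2, whose product is the main activator of sterol synthesis, had 79.6, 79.2 and 72.6 FPKM in shERO1A and 94.8, 93.5 and 93.8 FPKM in shNC (log2 change -0.28, SE 0.05, adjusted p = 0.00649). Srebf1, whose products favour fatty acid synthesis, had 34.1, 34.4 and 30.7 FPKM in shERO1A and 40.9, 38.7 and 39.2 FPKM in shNC (adjusted p = 0.0176); its isoforms are not separated in a table per gene. In both factors KD3 was the lowest library. Scap, the escort, had 20.5, 20.3 and 19.5 FPKM in shERO1A and 22.7, 22.1 and 22.0 FPKM in shNC and missed the threshold (adjusted p = 0.0627; 0.0416 without KD3, 0.0465 with median centring and 0.0473 with quantile normalization). The proteases averaged higher in shERO1A, without a call in the limma fit of all libraries. Mbtps1, which makes the luminal cut, had 54.2, 56.0 and 55.9 FPKM in shERO1A and 49.6, 50.6 and 50.8 FPKM in shNC (adjusted p = 0.0535). It was called higher without KD3 (adjusted p = 0.0179), with voom (0.0462), with no filter (0.0442) and with array weights (0.00217). In that order, these fits called 14.8%, 9.9%, 5.47% and 22.2% of all genes tested higher. Mbtps2, which makes the cut within the membrane, had 8.28, 8.16 and 8.58 FPKM in shERO1A and 7.72, 7.07 and 7.36 FPKM in shNC (adjusted p = 0.0884; 0.0265 with array weights). The groups of both proteases did not overlap, but neither passed in the unweighted fit of all libraries. Groups without overlap and higher in shERO1A were found for 21.5% of all tested genes, so the separation does not set the proteases apart. Mbtps2 shares exon sequence with Yy2 on the same strand in the GENCODE annotation.

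Promoters of the sensing and synthesis genes are shown because SREBPs act there, together with NF-Y at CCAAT boxes and Sp1 at GC boxes. RefSeq promoter windows of 300 bases (250 before to 50 after the start, build GRCm38.p6) were found for 29 of the 34 members, 38 windows in all; Fdps, Fdft1, Sqle, Stard4 and Npc1 had none. The stretches from 250 to 51 bases before the start are printed for Hmgcs1, chr13:119690101-119690300 (plus strand); Insig1, chr5:28071162-28071361 (plus strand); Srebf2, chr15:82147019-82147218 (plus strand); Cyp51, chr5:4104748-4104947 (minus strand); and, as a gene that rose, Hsd17b7, chr1:169969256-169969455 (minus strand). Capitals mark matches on either strand to TCACNCCAC or TCACCCCA (the sterol regulatory element core), CCAAT and GGGCGG.
Hmgcs1: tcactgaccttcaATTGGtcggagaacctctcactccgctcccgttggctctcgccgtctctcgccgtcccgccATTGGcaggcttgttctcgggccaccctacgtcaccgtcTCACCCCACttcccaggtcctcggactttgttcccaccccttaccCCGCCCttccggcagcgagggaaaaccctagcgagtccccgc
Insig1: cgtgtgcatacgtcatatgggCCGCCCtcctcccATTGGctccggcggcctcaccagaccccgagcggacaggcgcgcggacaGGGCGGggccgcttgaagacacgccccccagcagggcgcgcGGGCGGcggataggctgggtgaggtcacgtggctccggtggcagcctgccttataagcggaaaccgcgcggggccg
Srebf2: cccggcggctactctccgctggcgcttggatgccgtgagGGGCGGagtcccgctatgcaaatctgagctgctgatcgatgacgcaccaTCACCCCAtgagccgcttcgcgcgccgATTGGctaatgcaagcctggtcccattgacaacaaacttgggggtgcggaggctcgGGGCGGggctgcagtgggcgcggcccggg
Cyp51: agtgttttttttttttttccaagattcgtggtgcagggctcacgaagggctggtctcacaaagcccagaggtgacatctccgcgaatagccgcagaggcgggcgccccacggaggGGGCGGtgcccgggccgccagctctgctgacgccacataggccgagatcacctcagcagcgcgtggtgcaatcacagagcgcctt
Hsd17b7: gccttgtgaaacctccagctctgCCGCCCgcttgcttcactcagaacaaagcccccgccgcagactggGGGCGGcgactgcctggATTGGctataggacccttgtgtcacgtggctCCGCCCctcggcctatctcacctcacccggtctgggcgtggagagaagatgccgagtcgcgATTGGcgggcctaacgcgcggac

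TCACNCCAC was found in 1 of 38 member windows, that of Hmgcs1, 137 bases before the start, and in 1.24% of all 32851 windows. The shorter TCACCCCA, searched for after the sequences had been read, was found in the windows of Hmgcs1 and Srebf2, where it lies 162 bases before the start, and in 1.56% of all windows. CCAAT was present in 60.5% of member windows, against 38.0% of windows of tested genes and 37.4% of all windows. GGGCGG was present in 71.1% of member windows, against 64.5% of windows of tested genes and 35.7% of all windows, and the E-box CANNTG in 78.9%, against 62.3% and 72.3%. Counted per gene, CCAAT was found in 9 of 11 members that fell and have a window, in 13 of the 18 others and in 43.2% of tested genes. Hsd17b7 and Mylip are among those 13, and the expression of Mylip was not analysed here. No SREBP core match overlapped a CCAAT or GGGCGG match. In the percents of windows, genes with several starts count once per window. The matches are descriptions of letters, not of binding.

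Neither LXR gene passed in the unweighted limma fit of all 6 libraries, and transport and storage genes moved both ways. For the LXR genes limma gave 0 unadjusted p under 0.05, and neither passed with voom or in the authors' deposited table. With array weights, which called 41.0% of all tested genes, both were called, Nr1h2 higher (adjusted p = 0.0147) and Nr1h3 lower (adjusted p = 0.0366). Nr1h2 (LXR beta), a receptor that senses oxysterols, averaged 20.5 ± 0.890 FPKM in shERO1A and 19.1 ± 0.606 FPKM in shNC (SD, n = 3 each; limma adjusted p = 0.234) and was called higher without KD3. Nr1h3 (LXR alpha) was the lowest member, with 1.32, 1.05 and 1.20 FPKM in shERO1A and 1.89, 1.16 and 1.84 FPKM in shNC and as few as 89 reads in a library. Its groups overlapped through 1 low shNC library, replicate 2 (adjusted p = 0.204; 0.0493 without that library). Stard4, a soluble sterol carrier and SREBP target, fell to 13.5, 13.4 and 13.7 FPKM in shERO1A, against 17.5, 16.7 and 18.3 FPKM in shNC (log2 change -0.34, SE 0.05, adjusted p = 0.00287). Npc1, the lysosomal membrane protein that exports cholesterol taken up with lipoproteins, rose to 53.0, 49.4 and 42.2 FPKM in shERO1A, against 38.1, 36.1 and 40.2 FPKM in shNC. KD3 lay 2.09 FPKM above the highest shNC library (log2 change 0.33, SE 0.08, adjusted p = 0.0336). Without KD3 the log2 change was 0.42 (adjusted p = 0.00051). Npc2, the luminal partner that hands cholesterol to Npc1, averaged 57.6 ± 5.98 FPKM in shERO1A and 57.4 ± 2.27 FPKM in shNC (adjusted p = 0.998). Soat1, which esterifies cholesterol for storage, had 91.8, 90.2 and 93.3 FPKM in shERO1A and 82.6, 87.0 and 83.2 FPKM in shNC. Its groups did not overlap, with shERO1A higher, as in 21.5% of all tested genes. Soat1 was not called (limma adjusted p = 0.0892, and 0.0367 without KD3).

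**Figure D3:**
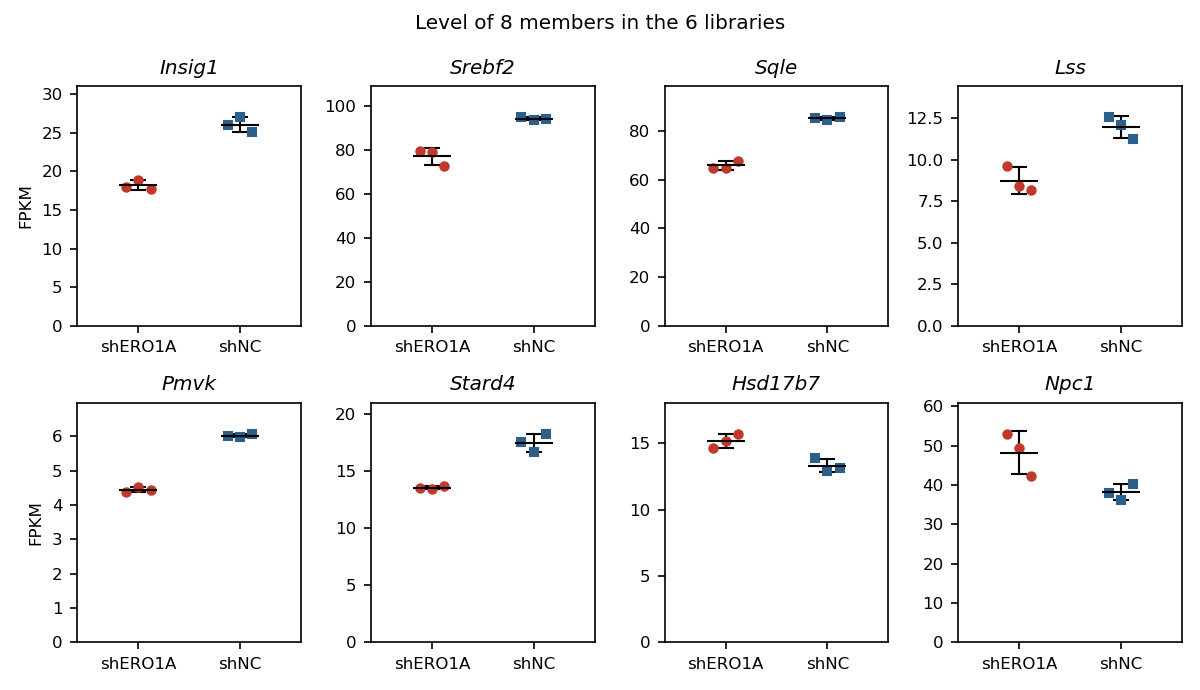
FPKM of 8 members in the 3 shERO1A libraries (red circles, KD1 to KD3 from left to right) and the 3 shNC libraries (blue squares); black bars are the mean and SD. Insig1, Srebf2, Sqle, Lss, Pmvk and Stard4 are lower in every shERO1A library, and Hsd17b7 and Npc1 are higher.

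Summed over the 20 synthesis enzymes, the level was 594 FPKM in KD1, 616 FPKM in KD2 and 647 FPKM in KD3, against 723, 708 and 706 FPKM in shNC replicates 1, 2 and 3, or 86.9% of shNC. The largest relative difference was in the squalene to lanosterol step, at 79.0% of shNC, and the smallest of the 4 synthesis steps was in the isoprenoid step, at 92.8%. Each of these 2 sums was mostly 1 gene. In shERO1A Sqle averaged 65.8 of 91.0 FPKM, and Fdps 120 of 137 FPKM. Of the isoprenoid genes only Ggps1 averaged above shNC, at 114%. Transport and storage genes summed to 107% of shNC. Members were well measured: their median level was 21.2 FPKM, against 11.1 FPKM for all tested genes. The coefficient of variation between libraries had a median of 5.09% in shERO1A and 3.18% in shNC over the members, and 7.51% and 3.94% over all tested genes. KD3 lay outside the range of KD1 and KD2 in 26 of 33 members, as the highest in 17 and the lowest in 9; over all tested genes it lay outside in 83.7%.

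Other genes of sterol metabolism were read from 6 further lists. Their counts in the limma fit of all libraries stand against the 17.7% of all tested genes that were called there. The isoprenoid branch uses the diphosphates for dolichol, ubiquinone and prenylation. Of its 14 genes limma called 0, although 4 had an unadjusted p under 0.05. Voom called 1 higher, or 7.14%, against 19.0% of all tested genes. Array weights called 3 higher and 3 lower, or 42.9%, against 41.0% of all tested genes. Limma without KD3 called 3 higher and 1 lower, or 28.6%, against 27.7% of all tested genes. In acetyl-CoA supply, 2 of 6 genes fell and none rose. Me1, malic enzyme, which makes NADPH, had 57.2, 59.1 and 60.02 FPKM in shERO1A and 79.1, 76.5 and 77.2 FPKM in shNC (75.7% of shNC, adjusted p = 0.000644). Acss2, the cytosolic acetyl-CoA synthetase, was at 79.6% of shNC (adjusted p = 0.0184). Of 11 sterol enzyme partners 2 fell: Lbr, a sterol reductase of the nuclear envelope, at 82.2% of shNC (adjusted p = 0.00777), and Cyb5b, a cytochrome b5, at 89.5% (adjusted p = 0.0382). That is 18.2% of the list, about the share of all tested genes. Only Me1 and Lbr of these 4 kept their calls without each library in turn.

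In sterol-triggered degradation, Rnf145, a ubiquitin ligase that acts on SCAP, fell to 85.3% of shNC (limma adjusted p = 0.0103). Rnf145 was not called when any single shNC replicate was left out. Of 16 tested genes of sterol transport and ester storage, 2 fell and 1 rose, or 18.8%, again about the 17.7% of all tested genes. Soat2, the paralog of Soat1, had 6.65, 6.55 and 5.20 FPKM in shERO1A and 9.04, 7.81 and 9.55 FPKM in shNC, 69.7% of shNC (adjusted p = 0.0193). Gramd1b, which moves sterol from the plasma membrane, was at 76.1% of shNC (adjusted p = 0.0485), and Osbpl11, of the oxysterol-binding protein family, at 128% (adjusted p = 0.0354). In this list there were 0 calls without shNC replicate 3, 1 without replicate 1 and 1 without replicate 2. Over all tested genes these fits called 9.25%, 9.46% and 9.28%. There was 1 call without KD2, 3 without KD1 and 6 without KD3, where 11.6%, 15.9% and 27.7% of all tested genes were called. Of 5 tested LXR targets and oxysterol genes, Nr1h4, the bile acid receptor FXR, rose to 8.18, 8.09 and 7.54 FPKM in shERO1A, against 5.15, 5.69 and 6.14 FPKM in shNC (140% of shNC, adjusted p = 0.00544). Lpcat3, a phospholipid acyltransferase, fell to 85.6% (adjusted p = 0.0139) but was not called without KD2 or any single shNC replicate (adjusted p up to 0.0766). Abca1, the cholesterol exporter, was under the level filter, with 0.764, 0.614 and 0.684 FPKM in shERO1A and 0.313, 0.386 and 0.311 FPKM in shNC, and with no filter it was called higher (adjusted p = 0.00985).

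The calls differed in how far they rested on single libraries. Of the 13 falls, 9 (Aacs, Pmvk, Mvd, Sqle, Lss, Cyp51, Insig1, Srebf2 and Stard4) were called in each of 14 alternative fits, the 6 that leave out 1 library included. Ebp lost its call without shNC replicate 1 or 2 (adjusted p = 0.063 and 0.0591). Srebf1 lost it without shNC replicate 1, 2 or 3 (adjusted p = 0.0835, 0.0583 and 0.0685). Acat2 and Hmgcs1 lost theirs without KD2 or any single shNC replicate, with the highest adjusted p at 0.078 for Acat2 and 0.107 for Hmgcs1. The rises of Hsd17b7 and Npc1 were not called when any single library other than KD3 was left out, up to adjusted p = 0.174 and 0.129. In the authors' deposited table, q was under 0.05 for the same 13 lower and 2 higher members, and for 19.9% of the tested genes.

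Backgrounds moved with the setting as well, and are given here as the share of all genes tested that were called higher and lower in shERO1A. Without KD1, 0 members were higher and 13 lower, against 8.35% and 7.59% of genes. Without KD2 these were 0 and 11 members, against 5.99% and 5.6% of genes. Without KD3 they were 5 and 19, against 14.8% and 12.9%. Leaving out shNC replicate 1 gave 0 and 9 members, against 4.76% and 4.7% of genes. Replicate 2 gave 0 and 10, against 4.68% and 4.59%, and replicate 3 gave 0 and 10, against 4.78% and 4.47%. So every omission but that of KD3 lowered the share of genes called, and the members' count of falls stayed at 9 or more. Quantile normalization gave 0 and 16 members, against 9.61% and 9.25% of genes, and median centring 1 and 14, against 8.35% and 8.87%. A pseudocount of 0.1 gave 2 and 13, against 9.41% and 8.14%, and voom on recovered reads 3 and 13, against 9.9% and 9.11%. With no filter 1 and 13 were called, against 5.47% and 5.01%, and with a filter at 5 FPKM 2 and 13, against 10.4% and 8.38%. Without the intensity trend the counts were 1 and 13, against 8.82% and 8.11%. Array weights, which give KD3 little weight, called 7 and 23, against 22.2% and 18.7% of genes.

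**Figure D4:**
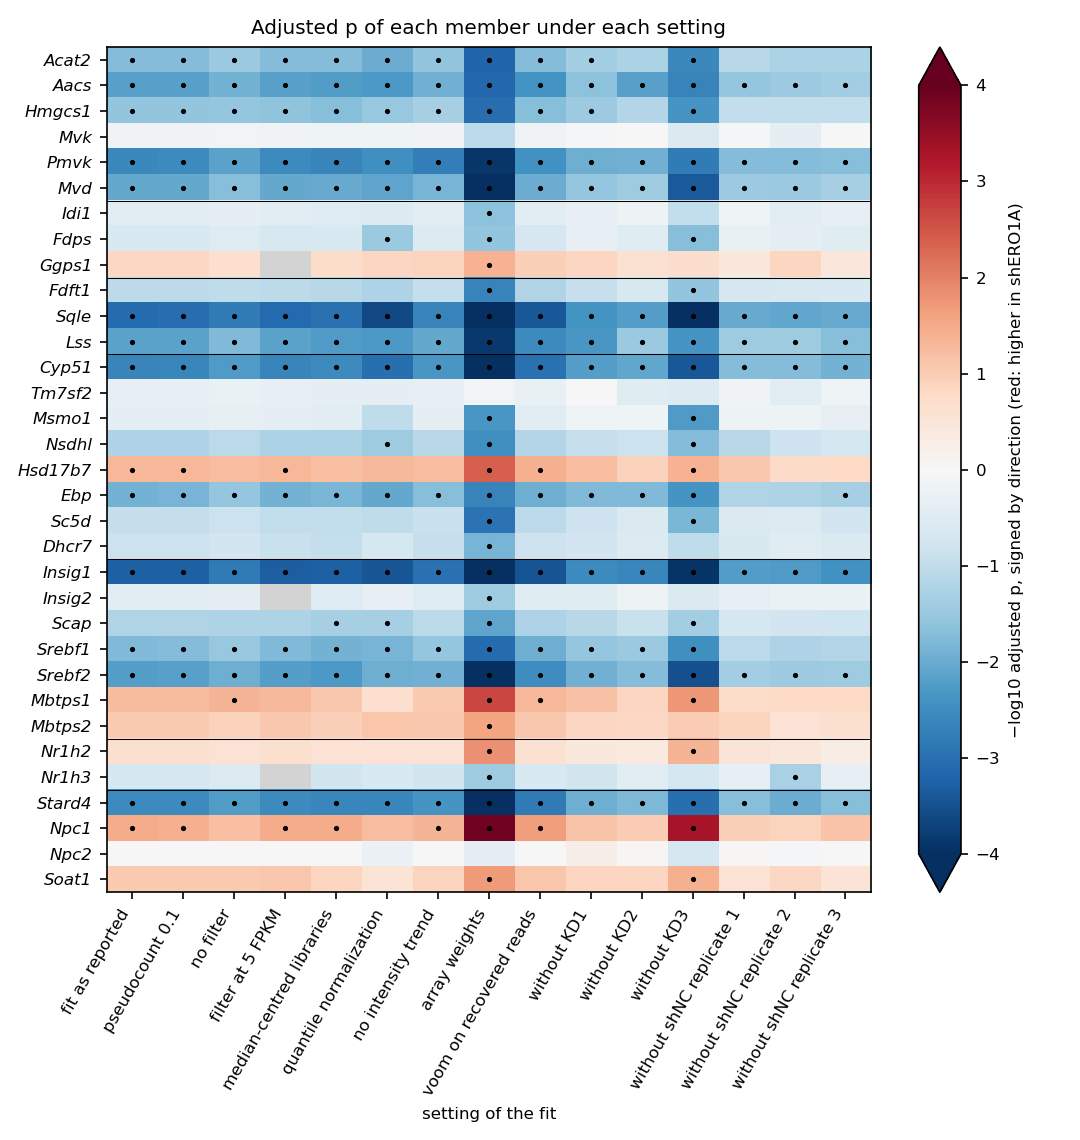
Adjusted p of each listed member under each setting, as −log10 signed by direction (blue, lower in shERO1A; red, higher; black dots, adjusted p under 0.05; grey, not tested). Rows such as Insig1, Sqle and Stard4 carry a dot in every column, whereas Hsd17b7 and Npc1 carry none in the columns that leave out a library other than KD3.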

How the data were processed

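Gene expression was measured by RNA sequencing in 6 libraries. Neither annotation nor strand setting is given in the sources used here. RNA was extracted with TRIzol and libraries were made with a VAHTS kit, per the labels. The submitters' processing notes name HISAT2 2.1.0 and HTSeq 0.11.2, with mm39 as the build. The authors deposited 1 table; its 6 expression columns carry no unit and were identified as FPKM from their values. Per the file headers it also has a DESeq2 base mean, a signal on the scale of normalized counts. The authors' comparison is deposited as a fold change (a ratio), a log2 value of it, a p-value and a q-value.

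Columns of the shNC libraries match sample titles. Those of KD1 to KD3 give the knockdown group without a sample number and served as its 3 libraries. Whole reads were recovered from the FPKM values and base means (100% of 97302 values within 0.01 of a whole number). Genes at or above 1 FPKM on average were fitted as log2(FPKM + 1) by limma 3.58.1 (R 4.3.3, trended prior, groups as the single term). Benjamini-Hochberg adjustment ran over all 10296 genes, and 0.05 was the threshold. Changes on this log2 scale are too small for low genes; percents of shNC are of mean FPKM. The fit and the recovery were tested on simulated data. Libraries of 1 group differed beyond sampling noise (chi-square per degree of freedom of 4.10 or more), so none was taken for a copy. This measure was 5.95 between KD1 and KD2, but 58.8 and 44.9 between KD3 and these libraries. Between KD1 or KD2 and the shNC libraries it was 29.3 to 31.6. KD3 thus lay farther from the rest of its group than KD1 and KD2 lay from shNC.

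Members, lists and motifs were chosen with earlier results of these data known. All members are named; from each further list up to 3 called genes with the largest change were named, except that 1 result is not reported here, and Abca1 was chosen after its values were seen. Promoters are RefSeq windows, and exon overlaps are from GENCODE, both on GRCm38. Alternatives were another pseudocount (0.1), no filter or one at 5 FPKM, median centring, quantile normalization, no trend, array weights, voom on the recovered reads, the authors' q-values, and leaving out each library; the promoter windows were also searched without the 50 bases after the start.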

Additional observations from a re-analysis of the deposited data

How the results depend on the processing

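Of the member counts, 13 lower calls kept within 1.5 times under every alternative except array weights, which gave 23 lower and 7 higher members and 1930 lower and 2289 higher genes over the whole table; the weights were 0.135 for KD3 and 4.54 for KD2. Against 2 higher calls there were 1 with no filter (Mbtps1, with Hsd17b7 and Npc1 both lost), 1 with median-centred libraries and 1 without the intensity trend (Hsd17b7 lost in each), and 0 with quantile normalization. Leaving out 1 library gave 9 to 19 lower and 0 to 5 higher members, and 460 to 1332 lower and 482 to 1521 higher genes. The extremes for members were shNC replicate 1 (9 lower) and KD3 (19 lower, 5 higher). The sign of 2 uncalled members turned when a library was left out, with log2 changes of -0.126 to 0.011 for Mvk and -0.0799 to 0.0621 for Npc2 over the 6 omissions. The cause was not tested. No scaling moved the median of all genes by over 0.1 on the log2 scale. The share of member windows with a motif stayed within its 95% Wilson interval when the bases after the start were left out. That check could hardly fail, because the shorter window lies inside the longer one and the interval is wide (44.7% to 74.4% for CCAAT). No paired analysis was possible because the columns KD1, KD2 and KD3 match no numbered sample, so the replicate block was not run. Depth limits Nr1h3 most, with 89 reads in its lowest library.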
